A study of Homo sapiens with 12 samples.

Results

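ZNF genes carry the symbols given to human zinc finger proteins, most of which bind DNA through a run of C2H2 fingers, short loops folded around a zinc ion by a pair of cysteines and a pair of histidines. The members described here are the genes with a symbol of ZNF and a number that were expressed in the promyelocytic leukaemia cell line HL-60, of human origin. They were chosen by a mean level of 2 FPKM or more (fragments per kilobase of transcript, scaled to library depth, as the authors deposited it) in at least 1 of 4 groups. Of 60660 genes in both deposited tables, 558 had such a symbol and 278 of these met the rule. Bulk RNA sequencing covered 4 groups of 3 libraries: HL-60 cells transduced with JMJD3 (JMJD3 overexpression) against cells given a control vector, and cells with JMJD3 knockout against parental cells. JMJD3, the product of KDM6B, removes a methyl mark that Polycomb enzymes place on histone H3. The labels name no promoter for the vector, do not say whether the knockout cells are a single clone, and leave it unstated whether each replicate was its own culture. The p-values therefore reflect library-to-library spread, which may be technical.

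Many ZNF proteins also carry a KRAB domain, which recruits the scaffold TRIM28 (KAP1) and through it the histone methyltransferase SETDB1 to silence the bound DNA. Many of their targets are transposons. The genes for KRAB zinc finger proteins lie in clusters, above all on chromosome 19, where the family grew by repeated duplication. Other ZNF proteins have no KRAB domain and work as activators, in RNA processing or on the ribosome.

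Of the 278, 108 (38.8%) lay on chromosome 19, 26 on chromosome 7 and 25 on chromosome 16, and 274 were protein coding. A KRAB-like sequence pattern was found in the longest annotated protein of 139 of the 274, 79 of 108 on chromosome 19 and 60 of 166 elsewhere. The pattern misses some KRAB genes, so these counts describe the pattern and not the domain. The median protein held 9.5 fingers by the spacing pattern and the highest count was 30. KRAB-pattern members had a median of 11 fingers and the others a median of 7.

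Most members were expressed at low levels. Their mean FPKM over the 4 groups had a median of 6.98, against 16.5 for the 11983 genes of the tables that met the same FPKM rule. KRAB-pattern members had a median of 5.27 FPKM and the other protein-coding members a median of 10.2 FPKM. Mean levels lay below 5 FPKM in 97 members and above 50 FPKM in 9. All members together took 0.796%, 0.802% and 0.835% of the counts in the overexpression libraries, against 0.740%, 0.734% and 0.756% in the vector controls. They took 0.717%, 0.759% and 0.739% in the knockout libraries, against 0.773%, 0.764% and 0.800% in the parental libraries. By this share the overexpression libraries lay above all vector controls, and the knockout libraries lay below all parental ones. Summed FPKM did not give the same order. It came to 3334, 3274 and 3274 in the overexpression libraries, against 3443, 3479 and 3411 in the vector controls, and to 3036, 3182 and 3084 in the knockout libraries, against 3121, 3142 and 3313 in the parental ones. By FPKM the overexpression libraries lay below all vector controls, and the knockout and parental libraries overlapped.

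The selection was on levels in all 4 groups, so a gene that was high in a single group entered through that group. In 237 members the level reached 2 FPKM in every group, in 12 in 3 groups, in 12 in 2 groups and in 17 in 1 group. Just inside the limit were ZNF254 (highest group mean 2.02 FPKM), ZNF597 (2.05 FPKM) and ZNF564 (2.10 FPKM). Just outside were ZNF446 (1.94 FPKM), ZNF595 (1.98 FPKM) and ZNF322 (1.98 FPKM). ZNF595 averaged 1.98 FPKM in overexpressing cells and 0.016 FPKM in vector controls. ZNF322 is described below because it switched in the knockout comparison although it missed the limit.

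CPM values are counts scaled to library size with TMM factors within each table. KDM6B itself was at 98, 99.5 and 83.9 CPM in the overexpression libraries, against 35.2, 34.8 and 24.7 CPM in the vector controls. Knockout libraries held 37.2, 45.2 and 36.9 CPM of it, against 56.6, 56.6 and 59.0 CPM in parental ones. Neither pair of groups overlapped, and KDM6B transcript remained in the cells labelled as knockout. The libraries held 26861304 to 39031314 expected counts in the overexpression table and 28563545 to 43647713 in the knockout table. Promyelocyte markers were present in all groups (7 of 8 at 1 CPM or more in each). They summed to 8906 to 9874 CPM in overexpressing cells, against 16927 to 21171 CPM in vector controls, and to 9657 to 10372 CPM in knockout cells, where ELANE was at 0, against 11590 to 12074 CPM in parental cells. The 3 fibroblast markers summed to 4.85 to 5.10 CPM in overexpressing cells, against 0.670 to 0.911 CPM in vector controls, with COL1A2 at 0 in all 4 groups, and the erythroid markers HBB and ALAS2 were at 0. The 8 mature myeloid markers summed to 1265 to 1279 CPM in overexpressing cells, against 65.7 to 66.3 CPM in vector controls, and to 84.7 to 88.9 CPM in knockout cells, against 103 to 108 CPM in parental cells. Mitochondrial genes took 5.48% to 6.42% of counts in overexpressing cells, against 3.64% to 4.02% in vector controls, and 4.58% to 4.94% in knockout cells, against 3.79% to 5.00% in parental cells. The part of these differences in the changes given below was not tested. In the overexpression table replicates 1 and 2 of a group lay close together, at a chi-square per gene of 1.69 in overexpressing cells and 1.96 in vector controls, where 1 is counting noise. Replicate 3 lay 29.7 to 39.2 per gene from both. Adjusted p-values with the replicate number as a block, given below for overexpression, may therefore reflect technical spread.

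The members with the widest swings were near 0 in one group and clearly expressed in its partner, and are called switches here. The 250 bases upstream of their most upstream RefSeq start site (GRCh38.p14) are shown for 4 of these genes and for ZNF577. The 4 are switches, and ZNF577 moved together with the overlapping ZNF649. Which start sites the cells used was not measured, and the windows of ZNF331 and ZNF273 lie inside the gene spans given below. Capitals mark CG dinucleotides, the sites of DNA methylation. The windows are ZNF37A at chr10:38094087-38094336 (plus strand), ZNF331 at chr19:53520764-53521013 (plus strand), ZNF273 at chr7:64877353-64877602 (plus strand), ZNF229 at chr19:44448579-44448828 (minus strand) and ZNF577 at chr19:51887952-51888201 (minus strand).
ZNF37A: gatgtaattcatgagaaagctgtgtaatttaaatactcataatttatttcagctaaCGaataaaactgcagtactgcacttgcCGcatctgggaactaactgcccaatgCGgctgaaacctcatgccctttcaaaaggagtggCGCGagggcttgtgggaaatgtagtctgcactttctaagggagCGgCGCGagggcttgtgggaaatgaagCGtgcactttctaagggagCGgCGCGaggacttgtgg
ZNF331: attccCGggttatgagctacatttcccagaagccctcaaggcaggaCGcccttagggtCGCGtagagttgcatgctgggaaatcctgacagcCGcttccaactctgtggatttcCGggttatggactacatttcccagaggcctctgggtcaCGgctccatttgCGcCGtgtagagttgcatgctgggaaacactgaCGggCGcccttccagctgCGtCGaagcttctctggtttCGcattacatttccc
ZNF273: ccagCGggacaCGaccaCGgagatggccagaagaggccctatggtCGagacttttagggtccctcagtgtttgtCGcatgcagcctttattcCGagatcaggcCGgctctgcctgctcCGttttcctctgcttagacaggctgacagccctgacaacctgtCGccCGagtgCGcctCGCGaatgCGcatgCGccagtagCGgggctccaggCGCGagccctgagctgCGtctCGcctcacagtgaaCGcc
ZNF229: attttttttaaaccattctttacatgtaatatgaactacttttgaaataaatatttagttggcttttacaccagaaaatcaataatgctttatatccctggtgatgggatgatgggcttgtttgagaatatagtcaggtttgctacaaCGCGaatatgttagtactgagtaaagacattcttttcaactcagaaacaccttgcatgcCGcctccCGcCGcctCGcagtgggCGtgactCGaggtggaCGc
ZNF577: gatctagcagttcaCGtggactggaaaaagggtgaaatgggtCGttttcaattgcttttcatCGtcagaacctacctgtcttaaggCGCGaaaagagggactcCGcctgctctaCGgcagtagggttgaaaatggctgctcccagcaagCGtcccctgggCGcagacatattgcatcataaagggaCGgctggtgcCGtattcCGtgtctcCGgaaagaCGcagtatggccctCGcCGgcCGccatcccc
The window of ZNF37A held 12 CG dinucleotides, that of ZNF331 14, that of ZNF273 21, that of ZNF229 9 and that of ZNF577 17. Over the 239 members found in the RefSeq promoter table the median was 18, against 10 over all 27305 genes in it. Windows with 10 or more CG made up 91.2% of the members' and 51.7% of all windows of that length. Of the 5 windows shown, that of ZNF229 was below this count. These are counts of letters, and methylation was not measured. The members were chosen as expressed, and the other genes of the promoter table were not. The higher counts are therefore not shown to be particular to ZNF genes.

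ZNF37A, a KRAB zinc finger gene on chromosome 10 (38094334 to 38150293, plus strand), moved in opposite directions in the 2 comparisons. It was at 0.239, 0.328 and 0.506 CPM in overexpressing cells, against 6.70, 6.61 and 7.6 CPM in vector controls. In knockout cells it was at 58.5, 59.4 and 60.2 CPM, against 0.433, 0.803 and 0.386 CPM in parental cells. Neither pair of groups came near overlapping. By the scaled sums of counts, vector controls held 18.8 times the level of overexpressing cells (95% counting interval 13.6 to 26.7), and knockout cells held 113 times the parental level (87.7 to 148). The 2 control groups also differed from each other, with all parental libraries below all vector controls, although the tables were scaled separately. Its nearest relative by shared sequence, the pseudogene ZNF37BP (7.7% of the 31-base words of ZNF37A), was at 32.2, 38.6 and 38.3 CPM in knockout cells and 41.6, 37.0 and 39.6 CPM in parental cells, and did not move with it.

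ZNF331, a KRAB zinc finger gene known as imprinted (chromosome 19, 53519527 to 53580269, plus strand), was higher in overexpressing and in knockout cells, each against its own control. It was at 4.92, 4.53 and 4.05 CPM in overexpressing cells, against 0 counts in all 3 vector controls. Taken against a floor of 3 counts over the vector group, that is at least 136-fold higher. In knockout cells it was at 7.42, 10.8 and 9.97 CPM, against 0.027, 0.172 and 0.023 CPM in parental cells, a ratio of 137 (69.4 to 319) on 868 counts in knockout cells and 8 in parental cells. ZNF331 thus was near 0 in both control groups and expressed in overexpressing and in knockout cells. The control groups were not alike in KDM6B, with means of 31.6 CPM in vector controls and 57.4 CPM in parental cells. Knockout cells were at 39.8 CPM of it, although the tables were scaled separately.

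ZNF273, a KRAB zinc finger gene on chromosome 7 (64870172 to 64930966, plus strand), was on in knockout cells alone among the 4 groups. It was at 6.21, 6.63 and 6.74 CPM in knockout cells, against 0.081, 0.029 and 0.023 CPM in parental cells, a ratio of 151 (64.5 to 468). In overexpressing cells it was at 0.239, 0.238 and 0.241 CPM, against 0.355, 0.304 and 0.708 CPM in vector controls, too low for the count filter there. Of its 31-base words, 22.7% occur in other annotated genes.

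ZNF322 (chromosome 6, 26634383 to 26659752, minus strand) had the same shape. It was at 7.86, 9.46 and 9.66 CPM in knockout cells, against 0.027, 0.057 and 0.136 CPM in parental cells, a ratio of 116 (60.9 to 254.8). In overexpressing cells it was at 0.478, 0.417 and 0.555 CPM, against 0.947, 0.979 and 1.39 CPM in vector controls, and every overexpressing library lay below every control. Its processed copy ZNF322P1 on chromosome 9 shares 92.1% of its own 31-base words with ZNF322. It was at 0.824, 0.854 and 0.843 CPM in knockout cells, against 0, 0.057 and 0 CPM in parental cells, so the copy moved with the gene at a much lower level and reads may be divided between them.

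A pair of members on chromosome 19 went off in the knockout. ZNF559, a KRAB zinc finger gene (9323772 to 9351162, plus strand), had 0 counts in all 3 knockout libraries, against 4.54, 4.65 and 4.67 CPM in parental cells. The knockout level was at least 141-fold lower against a floor of 3 counts over the knockout group. It was at 4.51, 3.64 and 6.41 CPM in overexpressing cells, against 2.33, 1.82 and 2.78 CPM in vector controls, a log2 fold change of 1.07 ± 0.249 (SE, adjusted p 0.00887 by edgeR's quasi-likelihood test). The neighbouring ZNF177 and the read-through transcript ZNF559-ZNF177 were at 0 in all knockout libraries as well. ZNF177 starts at 9363020, past the end of ZNF559. It shares 88.4% of its 31-base words with the read-through, which overlaps both genes. In parental cells ZNF177 was at 0, 0.402 and 0.318 CPM and the read-through at 0.595, 0.258 and 0.227 CPM.

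ZNF229, a KRAB zinc finger gene (44417519 to 44448578, minus strand), had 1 count over the 3 knockout libraries, against 1014 over the parental libraries. Its libraries were at 0, 0 and 0.035 CPM in knockout cells and at 9.82, 8.09 and 8.37 CPM in parental cells. The parental level was 801 times the knockout level, with a counting interval from 143 to 31656. In overexpressing cells it was at 7.31, 7.93 and 9.79 CPM, against 7.30, 5.60 and 6.29 CPM in vector controls, a log2 change of 0.39 ± 0.149 that missed the threshold (adjusted p 0.0615) and passed it with the replicate number as a block (adjusted p 0.00044).

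ZNF32, a short zinc finger gene on chromosome 10 (43643859 to 43648856, minus strand), was at 1.88, 1.76 and 1.59 CPM in overexpressing cells, against 0.039, 0.101 and 0.109 CPM in vector controls. The ratio of scaled counts was 19.8 (9.83 to 46.5). In knockout cells it was at 1.41, 1.24 and 1.09 CPM, against 0.649, 0.516 and 0.340 CPM in parental cells, a log2 fold change of 1.32 ± 0.306 (adjusted p 0.00271). It shares 20.1% of its 31-base words with the antisense gene ZNF32-AS2, and the library kit does not mark strand.

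**Figure D1:**
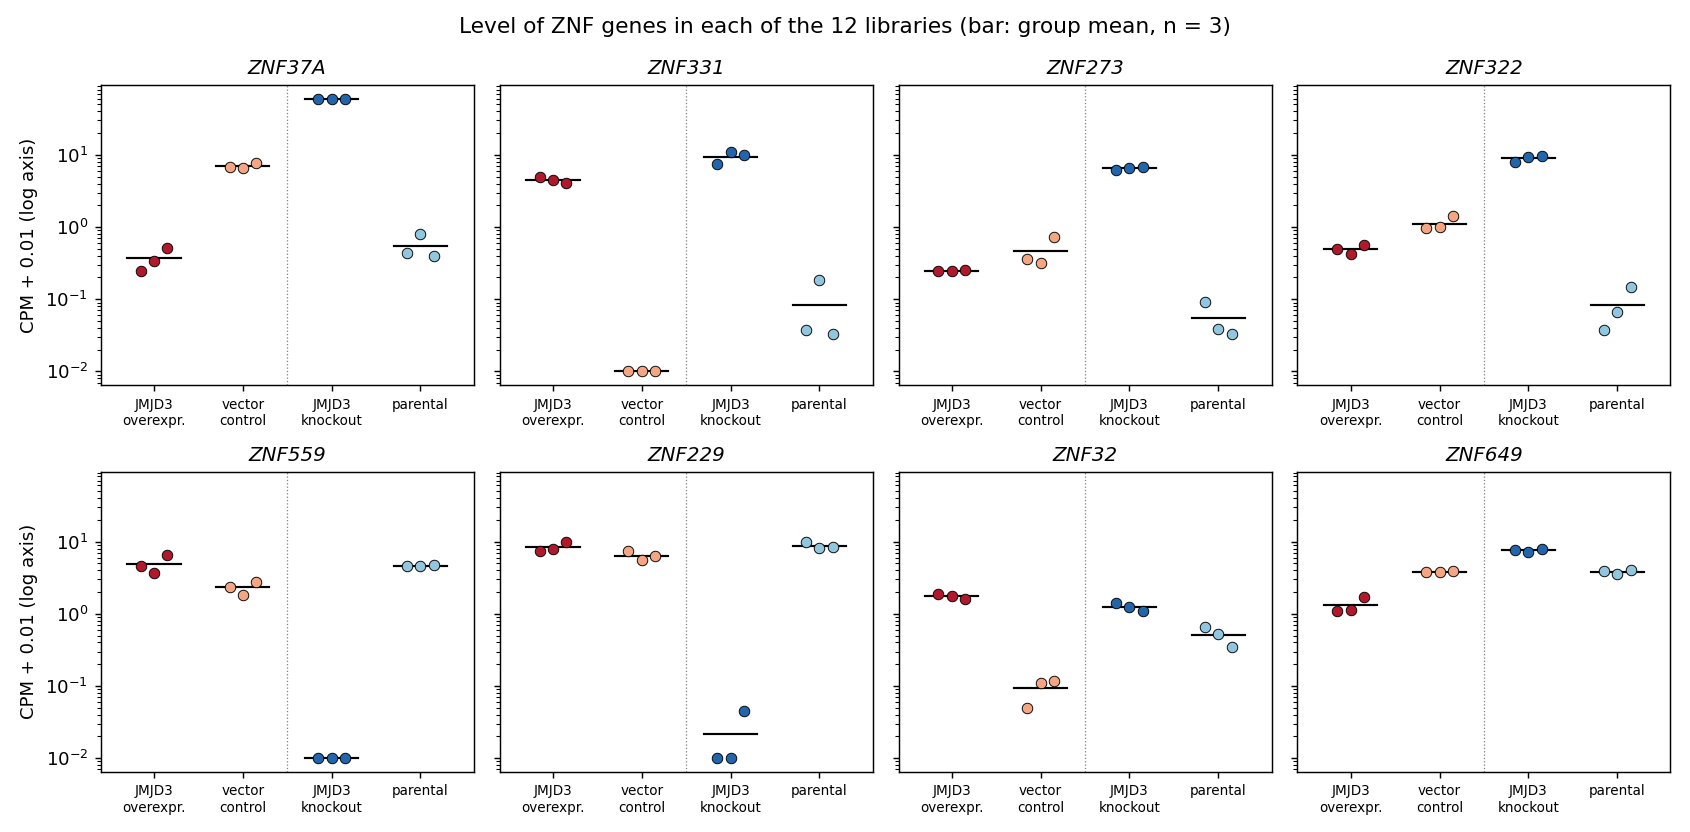
Level of 8 ZNF genes in each of the 12 libraries, in CPM plus 0.01 on a log axis; points are libraries, bars are group means, and the dotted line parts the separately scaled tables. ZNF37A sits near 60 CPM in the knockout libraries and below 1 CPM in the overexpressing and parental ones, ZNF331 is at 0 in the vector controls, and ZNF559 is at 0 in the knockout libraries.

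The first comparison asks which members follow a gain of JMJD3. On overexpression 71 members were called higher and 45 lower of 276 tested (edgeR's quasi-likelihood test, with p-values adjusted by Benjamini and Hochberg over 14322 genes and a threshold of 0.05), and 160 were not called. Of all genes tested, 50.3% were called, 26.4% higher and 23.9% lower, so the members' 42.0% lay below the background. Their median log2 fold change was 0.08, against 0.00 over all genes, with quartiles at -0.18 and 0.36. Changes of at least 1 on the log2 scale were called in 15 members upward and 3 downward of 276. Over all genes they were called in 1688 upward and 327 downward of 14322, 14.1% in total, so most were upward there too. Among the 237 members at 2 FPKM in every group, 51 were called higher and 40 lower, and the median was 0.03. Those 237 held 6 of the 15 rises of at least 1 and none of the 3 falls, so the other 9 rises and all 3 falls came from members that met the level rule in some of the groups only. KRAB-pattern members had 38 higher and 18 lower of 137 tested (median 0.13), and the other protein-coding members 31 higher and 26 lower of 135 (median 0.01). On chromosome 19 28 were higher and 16 lower of 107 tested. With the replicate number as a block, 115 members were called higher and 84 lower, against 36.4% and 36.8% of all genes. Scaling by library size shifted the all-gene median by 0.14 and gave 99 higher and 23 lower members. Upper-quartile scaling shifted that median by 0.09 and gave 93 and 32 members. The share of rises among the members' calls went to 81.1% and 74.4%, against 61.2%. With replicates 1 and 2 of each group summed into 1 library, 40 members were called higher and 14 lower. Shares of all genes called are not given for these scalings or the summed replicates, so these counts show dependence on the processing only.

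After ZNF331 and ZNF32, the largest rise was in ZNF780B, at 5.50, 6.32 and 9.16 CPM in overexpressing cells, against 1.89, 2.36 and 2.53 CPM in vector controls (log2 fold change 1.62 ± 0.222, adjusted p 0.000749). ZNF230 was at 14.2, 15.2 and 15.5 CPM in overexpressing cells, against 4.73, 4.56 and 5.53 CPM in vector controls (1.60 ± 0.107, adjusted p 2.56e-05). ZNF513 was at 16.5, 16.6 and 12.2 CPM in overexpressing cells, against 5.32, 5.94 and 4.39 CPM in vector controls (1.54 ± 0.166, adjusted p 0.000246). These 3 genes had no overlap between the groups. ZNF862 rose by 1.48 ± 0.194, ZNF503, a repressor of development, by 1.39 ± 0.152, and ZNF217, an oncogene product that works with histone demethylase complexes, by 1.35 ± 0.131. ZNF217 was at 63.9, 69.6 and 83.7 CPM in overexpressing cells, against 25.6, 26.9 and 32.4 CPM in vector controls.

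Apart from ZNF37A, ZNF649 and ZNF577 were the falls of at least 1 on the log2 scale. ZNF649 was at 1.09, 1.10 and 1.69 CPM in overexpressing cells, against 3.79, 3.78 and 3.87 CPM in vector controls (log2 fold change -1.54 ± 0.190, adjusted p 0.000475). ZNF577 was at 0.376, 0.596 and 0.796 CPM in overexpressing cells, against 1.14, 1.69 and 1.8 CPM in vector controls (-1.36 ± 0.302, adjusted p 0.00722). ZNF639 was at 40.5, 39.1 and 45.0 CPM in overexpressing cells, against 68.8, 72.3 and 87.6 CPM in vector controls (-0.88 ± 0.110, adjusted p 0.000488). ZNF628 (-0.86), ZNF296 (-0.75), ZNF587B (-0.74) and ZNF16 (-0.68) followed, all with separate groups. The fall of ZNF296 lost its call without overexpression replicate 3, vector control replicate 1 or vector control replicate 2, with adjusted p-values up to 0.115 over the alternatives. Of the 45 called falls, 44 had libraries that did not overlap, as did all 71 rises. The share over all called genes was not counted, so this is no trait of the members and adds nothing to the calls.

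The second comparison asks which members follow a loss of JMJD3. In knockout cells 26 members were called higher and 66 lower of 277 tested, and 185 were not called. Of 14186 genes tested, 37.8% were called, 17.6% higher and 20.2% lower, so members were called lower at 23.8% of those tested and higher at 9.39%. The median log2 fold change of the members was -0.05, against 0.00 over all genes, with quartiles at -0.19 and 0.08. Changes of at least 1 were called in 4 members upward and 5 downward of 277. Over all genes they were called in 266 upward and 510 downward of 14186, 5.47% in total. The members at 2 FPKM in every group gave 20 higher and 56 lower of 236 and the same median of -0.05. Of the called changes of at least 1, they held none of the 4 rises and 1 of the 5 falls, that of ZNF219. KRAB-pattern members had 13 higher and 27 lower of 138 tested, and the other protein-coding members 12 higher and 39 lower of 135. On log2(FPKM + 1) values limma called 13 higher and 29 lower, and the share of all genes it called is not given. Most of the called changes were small. Apart from the switches of this comparison, those of at least 1 were the falls of ZNF430, ZNF219 and ZNF618 and the rise of ZNF32 (1.32), given above.

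ZNF430, a KRAB zinc finger gene, was at 2.47, 3.68 and 4.32 CPM in knockout cells, against 10.9, 10.8 and 11 CPM in parental cells (log2 fold change -1.64 ± 0.147, adjusted p 3.27e-07). ZNF219 was at 8.55, 10.9 and 8.32 CPM in knockout cells, against 24.3, 21.6 and 24.6 CPM in parental cells (-1.34 ± 0.099, adjusted p 3.16e-08). ZNF618, whose product binds hydroxymethylated DNA with UHRF2, was at 8.62, 8.16 and 8.18 CPM in knockout cells, against 17.0, 15.5 and 17.4 CPM in parental cells (-1.0 ± 0.086, adjusted p 1.48e-07). In each of the 3 genes all knockout libraries lay below all parental ones. ZNF419 fell by 0.86 ± 0.088 on the log2 scale, ZNF780B by 0.76 ± 0.149 and ZNF316 by 0.71 ± 0.066. The fall of ZNF780B was in counts and not in FPKM, where it averaged 2.80 ± 1.1 in knockout cells and 2.78 ± 0.57 in parental cells (SD, n = 3 each).

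Among the smaller rises, ZNF649 was at 7.66, 7.22 and 7.90 CPM in knockout cells, against 3.95, 3.56 and 3.97 CPM in parental cells (log2 fold change 0.99 ± 0.118, adjusted p 6.4e-06). ZNF577 was at 3.36, 3.53 and 2.53 CPM in knockout cells, against 1.87, 1.63 and 1.75 CPM in parental cells (0.85 ± 0.185, adjusted p 0.00173). ZNF350 (ZBRK1), a KRAB protein that binds BRCA1, was at 10.8, 10.3 and 11.7 CPM in knockout cells, against 6.82, 7.26 and 5.74 CPM in parental cells (0.73 ± 0.109, adjusted p 6.18e-05). ZNF35 rose by 0.50 ± 0.083. None of these 4 had overlapping groups. On log2(FPKM + 1) values the ZNF577 call was lost (limma adjusted p 0.433).

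The comparisons share no samples. Of the 116 members called on overexpression and the 92 called in knockout, 43 were called in both. That is 37.1% of the first list and 46.7% of the second. Over all genes 3176 were called in both, of 7207 called on overexpression and 5357 in knockout, which are larger shares of both lists. In 34 of the 43 (79.1%) the directions were opposite, against 2328 of 3176 genes (73.3%) called in both over the whole tables. Of the 34, 22 were higher on overexpression and lower in knockout, and 12 were lower on overexpression and higher in knockout. Ranked by the smaller of the 2 changes, ZNF641 (0.83 on overexpression and -0.68 in knockout) and ZNF862 (1.48 and -0.68) followed ZNF37A, ZNF559, ZNF649, ZNF577 and ZNF780B. ZNF641 was at 24.6, 25.3 and 28.8 CPM in overexpressing cells, against 12.8, 15.4 and 16 CPM in vector controls. In knockout cells ZNF641 was at 13.6, 12 and 11.8 CPM, against 20.4, 19 and 20.3 CPM in parental cells. The other 9 moved the same way, 6 down in both and 3 up in both. ZNF331 and ZNF32 were up in both, and ZNF33B was down in both, by -0.60 ± 0.113 on overexpression and -0.63 ± 0.086 in knockout. ZNF618 was down in both as well, by -0.50 ± 0.105 on overexpression. ZNF33B shares 17.2% of its 31-base words with its paralogue ZNF33A.

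**Figure D2:**
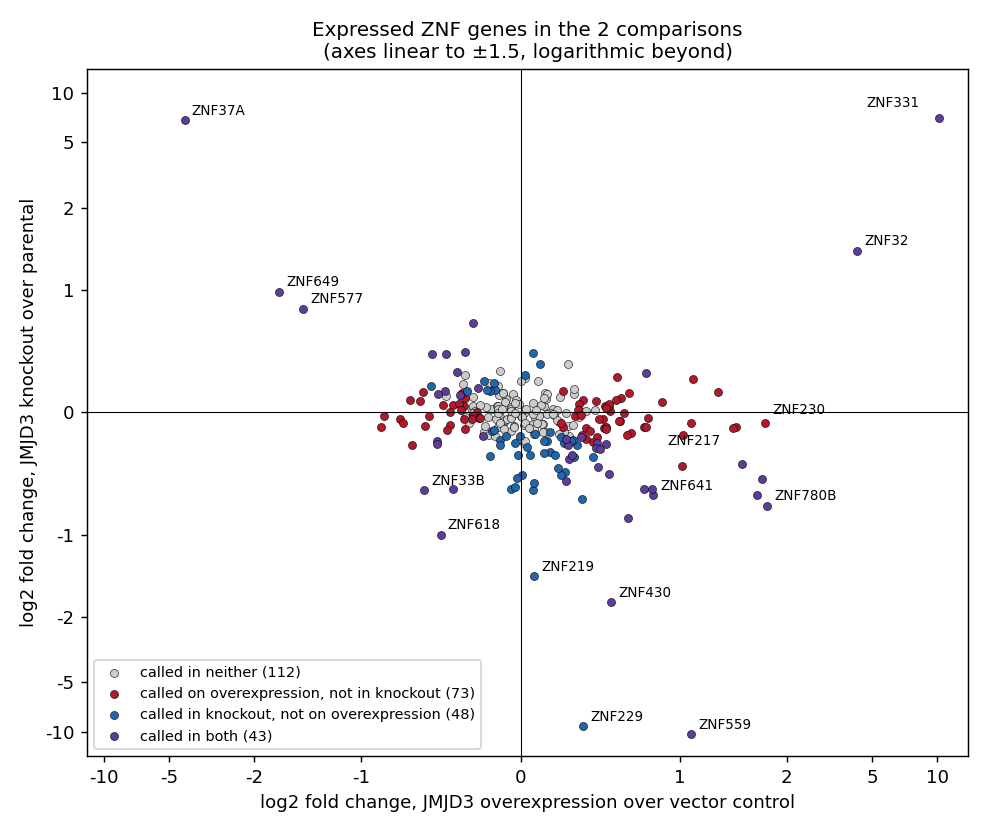
Log2 fold change of each member tested in both comparisons, JMJD3 overexpression over vector control on the horizontal axis and JMJD3 knockout over parental on the vertical axis; both axes are linear to ±1.5 and logarithmic beyond, and colours give the calls. Fitted values of ZNF331, ZNF559 and ZNF229 rest on groups at or near 0 counts and are no measure of size. Most of the 43 members called in both lie at the upper left and lower right.

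ZNF genes sit side by side, so the switches were set against neighbouring members. Members whose starts lay within 250 kb of the previous one formed 16 stretches of 4 or more, holding 127 members, and 8 of the stretches (77 members) were on chromosome 19. ZNF37A, ZNF273, ZNF559 and ZNF229 lay in such stretches, and in knockout the other members of these 4 stretches were between -0.51 (ZNF736) and 0.18 (ZNF107). Beside ZNF37A, ZNF33A 29.2 kb away was at -0.18 on overexpression (not called, adjusted p 8.75e-05 with the replicate block) and fell by 0.15 in knockout. ZNF25, 118 kb from ZNF37A, rose by 1.07 on overexpression and was at -0.09 in knockout (not called). Beside ZNF273, the closest member ZNF138 (36.5 kb) was at -0.09 on overexpression and 0.11 in knockout, neither called. On overexpression ZNF107 and ZNF680 near it rose by 0.27 and 0.36 and ZNF92 fell by 0.37, and none of these 3 was called in knockout. Beside ZNF559, ZNF266 (61.3 kb) was at 0.28 on overexpression (not called, adjusted p 6.7e-07 with the replicate block) and at -0.01 in knockout (not called). ZNF121, 209 kb from ZNF559, fell by 0.32 in knockout, and ZNF177 and the read-through transcript were at 0 there, as given above. Beside ZNF229, ZNF180 (25.9 kb) was at -0.14 on overexpression (not called, adjusted p 0.0374 with the replicate block) and at -0.12 in knockout (not called). On overexpression 4 members of the same stretch rose, ZNF230 (1.60) and ZNF226 (0.39) among them, and ZNF235 fell by 0.35, while ZNF227 fell by 0.22 in knockout. ZNF331 had no tested member within 250 kb, and ZNF160, 416 kb away, rose by 0.56 on overexpression and was at 0.01 in knockout. The member closest to ZNF32 was ZNF33B, 1005 kb away. Neighbours of ZNF322 were not examined.

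A stretch on chromosome 19 (51571298 to 52325922) differed from these. Of its 9 members, ZNF577, ZNF649 and ZNF350 fell on overexpression and rose in knockout, while ZNF613 and ZNF614, which lie among and beside them, were called in neither comparison. ZNF613 was at 0.24 on overexpression (adjusted p 0.0445 with the replicate block) and -0.08 in knockout, and ZNF614 at -0.06 and -0.04. ZNF577 and ZNF649 overlap on the same strand, so reads from their shared span may be divided between them. The overexpression call of ZNF350 (-0.30 ± 0.094, adjusted p 0.0302) was lost when any 1 library was left out, by DESeq2 and without the count filter. ZNF175, at the edge of the stretch, rose in both comparisons, by 0.78 on overexpression and 0.33 in knockout. ZNF480 fell by 0.26 on overexpression and was at -0.04 in knockout (not called). In this stretch 4 of 9 members were called lower on overexpression, against 23.9% of all genes. In knockout 4 of the 9 were called higher, against 17.6% of all genes. In the stretch of ZNF430 (21020620 to 21556270), 3 of 5 members rose on overexpression and 3 of 5 fell in knockout, ZNF430 and ZNF431 in both lists. Of all genes 26.4% were called higher on overexpression and 20.2% lower in knockout. Both stretches come from a set of 16, and 9 or 5 genes are too few to read as a share.

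**Figure D3:**
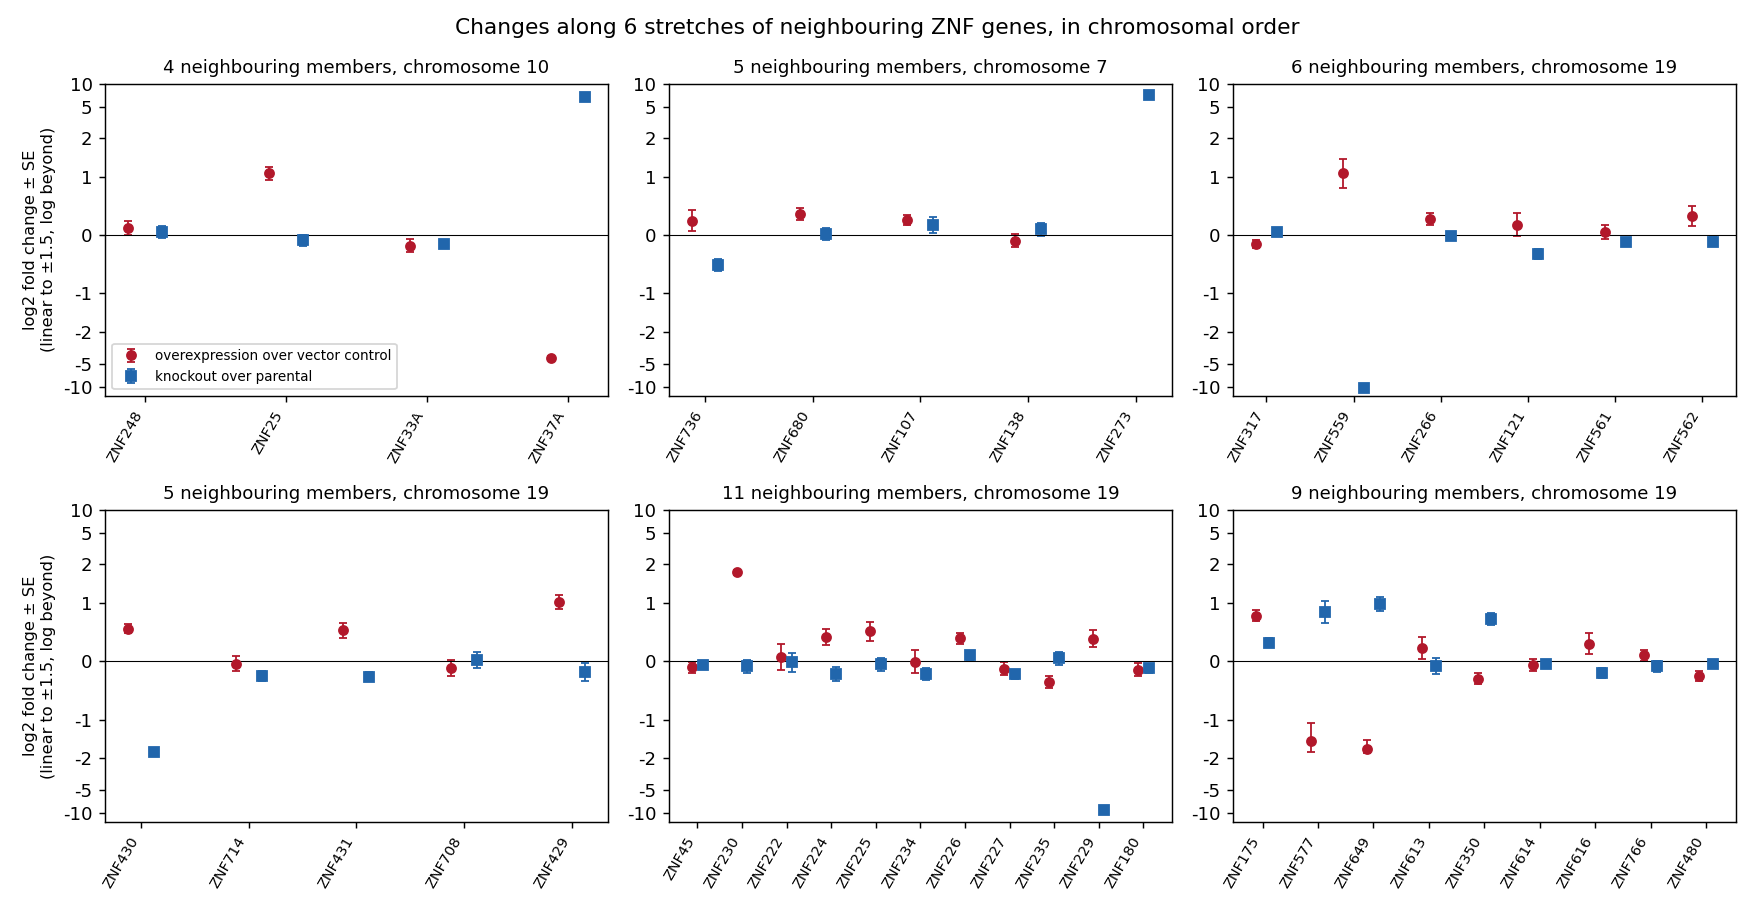
Log2 fold change ± SE of the members in 6 stretches of neighbouring genes, in chromosomal order, with overexpression over vector control as circles and knockout over parental as squares (vertical axis linear to ±1.5, logarithmic beyond). In knockout ZNF37A, ZNF273, ZNF559 and ZNF229 lie beyond the other members of their stretches, which run from -0.51 to 0.18, while on overexpression ZNF25 and ZNF230 reach 1.07 and 1.60; ZNF577, ZNF649 and ZNF350 are below 0 as circles and above 0 as squares.

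The 6 members of highest mean FPKM had no KRAB pattern. ZNF207 (BuGZ), which loads the checkpoint protein BUB3 on kinetochores, averaged 127 ± 6.1 FPKM in overexpressing cells and 166 ± 6.8 FPKM in vector controls, and 135 ± 4.8 FPKM in knockout cells and 119 ± 2.5 FPKM in parental cells (SD, n = 3 each). ZNF146 came next at 114 ± 4.0 FPKM in overexpressing cells and 121 ± 18 FPKM in vector controls, and was called in neither comparison, but passed on overexpression with the replicate block (adjusted p 0.00249). ZNF598, ZNF511, ZNF706 and ZNF330 completed the first 6. ZNF706 averaged 60.8 ± 2.9 FPKM in overexpressing cells and 71.2 ± 0.91 FPKM in vector controls, and 109 ± 9.3 FPKM in knockout cells and 92.5 ± 5.7 FPKM in parental cells, and its rise in knockout passed the test (0.25 ± 0.053, adjusted p 0.00133). ZNF330, a nucleolar protein, fell on overexpression (-0.42 ± 0.119, adjusted p 0.0202), a call lost without overexpression replicate 1 or overexpression replicate 2.

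Of 9 members with roles in RNA processing, the ribosome or mitosis, 4 fell and none rose on overexpression, against 23.9% and 26.4% of all genes, and 3 rose and 1 fell in knockout, against 17.6% and 20.2%. ZNF207 was at 240, 240 and 262 CPM in overexpressing cells, against 315, 317 and 334 CPM in vector controls (-0.38 ± 0.067, adjusted p 0.00238). ZNF326, which links RNA polymerase II to splicing, was at 52.4, 51.4 and 51.0 CPM in overexpressing cells, against 71.9, 70.4 and 79.0 CPM in vector controls (-0.52 ± 0.072, adjusted p 0.000784). ZNF598, the ubiquitin ligase that senses collided ribosomes, fell by 0.52 ± 0.166 on overexpression, a call lost without overexpression replicate 2 or 3 or vector control replicate 1 or 2. It also fell in knockout by 0.23 ± 0.047. ZNF346, which binds double-stranded RNA, fell by 0.44 ± 0.093 on overexpression. ZNF207, ZNF326 and ZNF593 rose in knockout by 0.14, 0.15 and 0.22. The ZNF326 rise was lost without knockout replicate 1 or 3 or parental replicate 1 or 3, and the ZNF593 rise without knockout replicate 3 or parental replicate 1. ZNF593 stood at -0.56 ± 0.225 on overexpression, short of the threshold by edgeR's test (adjusted p 0.0713). Its fall did pass once the replicate number entered that fit as a block (adjusted p 9.4e-16). ZNF593 shares 92.7% of its 31-base words with the overlapping AL391650.1. ZNF638, ZNF622, ZNF106 and ZNF830 were called in neither comparison, though with the replicate block ZNF638 and ZNF106 passed on overexpression (adjusted p 5.66e-07 and 0.00829).

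Of the listed regulators of transposons, imprints and heterochromatin, ZNF445, ZNF274 and ZNF649 were members. ZNF274, which brings SETDB1 to the ends of ZNF genes, was at 67.3, 67.2 and 61.1 CPM in overexpressing cells, against 57.3, 53.6 and 48.1 CPM in vector controls (0.30 ± 0.087, adjusted p 0.0233). In knockout cells it was at 46.4, 53.2 and 48.5 CPM, against 62.3, 56.3 and 59.6 CPM in parental cells (-0.27 ± 0.059, adjusted p 0.00211). Its groups did not overlap in either comparison, and the overexpression call was lost without overexpression replicate 1 or 2 or vector control replicate 2. ZNF445, which keeps imprints methylated, was at 0.30 ± 0.136 on overexpression (adjusted p 0.108, and 3e-09 with the replicate block) and at -0.11 ± 0.049 in knockout (adjusted p 0.0776).

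Of 13 broad regulators of transcription, 4 rose and 3 fell on overexpression, and 1 rose and 2 fell in knockout. The 53.8% called on overexpression is near the 50.3% of all genes, and the 23.1% called in knockout is below the 37.8% of all genes. The rises on overexpression were ZNF217, ZNF281 (0.63 ± 0.119), ZNF516 (0.54 ± 0.063) and ZNF687 (0.29 ± 0.077), and the falls were ZNF592 (-0.31 ± 0.068), ZNF263 (-0.27 ± 0.066) and ZNF384 (-0.26 ± 0.092), a partner in leukaemia gene fusions. Leaving out overexpression replicate 1 or 2 ended the call of ZNF687, and leaving out any library but vector control replicate 3 ended that of ZNF384. In knockout ZNF24 rose by 0.17 ± 0.052, and ZNF687 and ZNF76 fell by 0.22 ± 0.049 and 0.24 ± 0.067. With the replicate block ZNF24, ZNF76, ZNF148 and ZNF644 also passed on overexpression (adjusted p up to 0.014). The knockout calls of ZNF24 and ZNF76 were lost without knockout replicate 3. ZNF143, which activates many promoters, was at 23.7, 24.6 and 28.2 CPM in overexpressing cells, against 26.7, 26.8 and 28.2 CPM in vector controls, and was called in neither comparison.

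A list of 30 genes, called corepressors here, held TRIM28 and SETDB1 together with other heterochromatin and DNA methylation factors. On overexpression 14 of the 30 fell and 2 rose, with a median log2 fold change of -0.26. In knockout 3 rose and 5 fell, with a median of -0.03. These counts describe the whole list and not the partners of KRAB proteins alone. The share called was 53.3% on overexpression, near the 50.3% of all genes, with 46.7% lower against 23.9% of all genes, and 26.7% in knockout, against 37.8% of all genes. Without overexpression replicate 2 or without vector control replicate 2, 10 were called on overexpression, and with the replicate block 28. With that block 36.4% of all genes were called higher and 36.8% lower, and shares of all genes without single libraries are not given. In knockout 5 were called without knockout replicate 1, without knockout replicate 3 or without parental replicate 1. TRIM28 was at 535, 533 and 496 CPM in overexpressing cells, against 918, 904 and 770 CPM in vector controls (-0.73 ± 0.083, adjusted p 0.00033). In knockout cells it was at 623, 613 and 600 CPM, against 538, 570 and 534 CPM in parental cells (0.16 ± 0.043, adjusted p 0.0067). SETDB1 was at 130, 124 and 129 CPM in overexpressing cells, against 123, 119 and 115 CPM in vector controls (0.11 ± 0.065, adjusted p 0.21, and 0.00295 with the replicate block), and at 114, 113 and 111 CPM in knockout cells, against 127, 125 and 129 CPM in parental cells (-0.17 ± 0.042, adjusted p 0.00368). On overexpression the methyltransferases SUV39H1 and SETDB2 fell by 0.51 ± 0.073 and 0.64 ± 0.094, and UHRF1, which guides DNA methylation to new DNA, by 0.44 ± 0.066. In knockout the heterochromatin protein CBX5 fell by 0.39 ± 0.044 and the remodeller CHD3 by 0.24 ± 0.041.

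**Figure D4:**
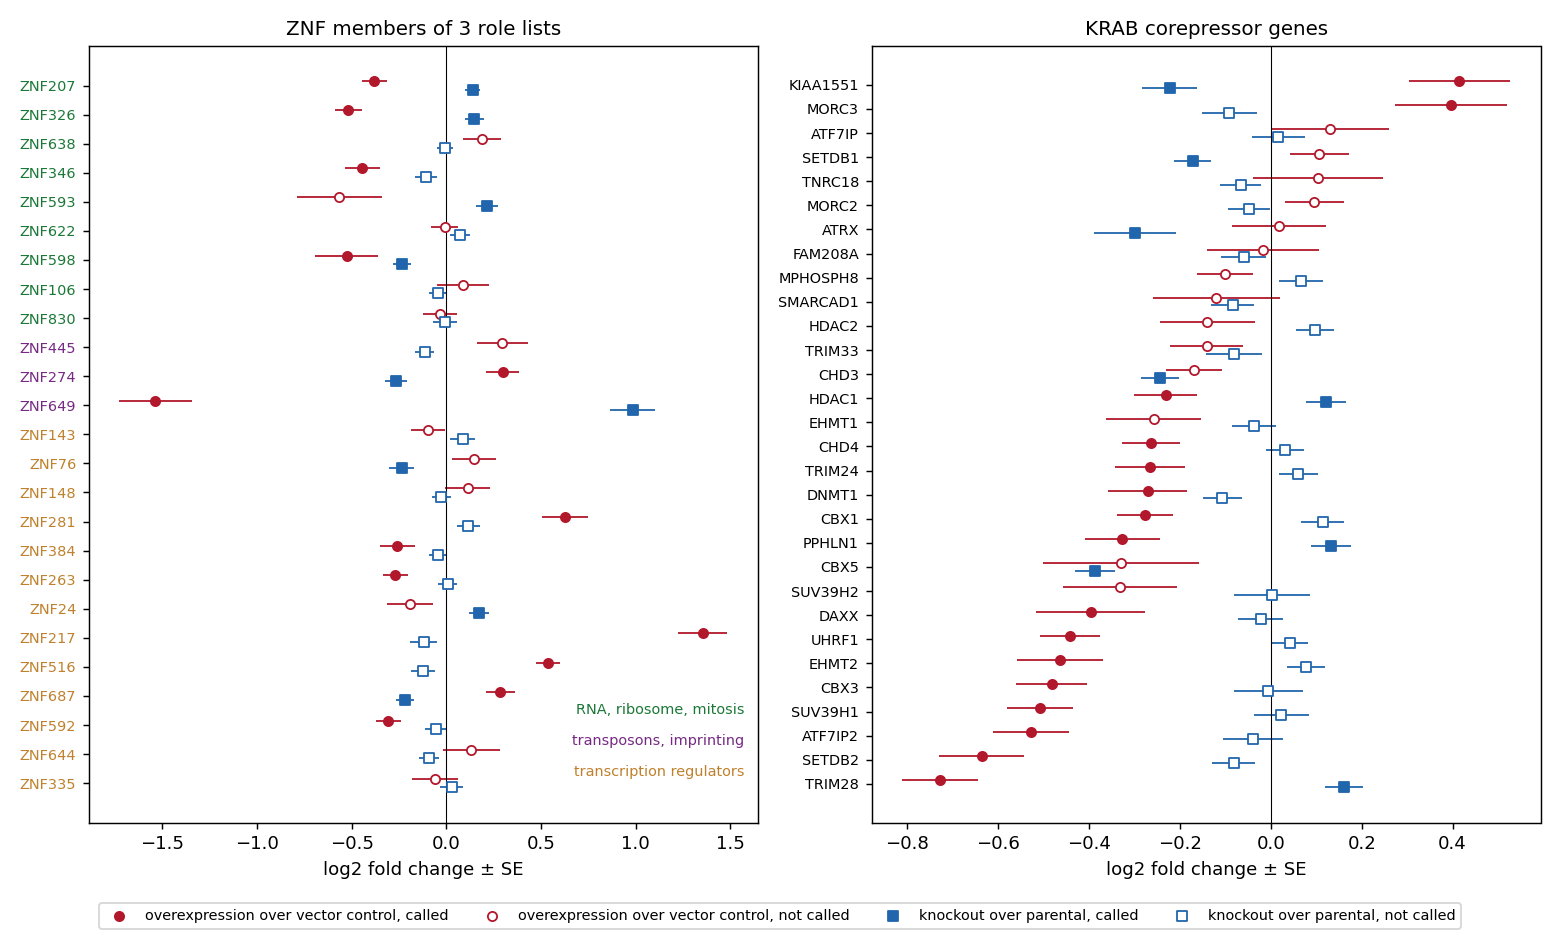
Log2 fold change ± SE of the members of the 3 role lists (left, label colour gives the list) and of the corepressor genes (right), with overexpression over vector control as circles and knockout over parental as squares; filled symbols passed the test. TRIM28 has the lowest circle among the corepressors, at -0.73, and its square is at 0.16.

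Zinc finger genes under other symbols gave a comparison set. Of 91 such genes, 55 met the same FPKM rule, and 23 were called higher and 11 lower on overexpression (median 0.24), against 71 and 45 of the 276 members (median 0.08). In knockout 5 were higher and 12 lower (median -0.06), against 26 and 66 of the 277 members (median -0.05). On overexpression 61.8% of this set and 42.0% of the members were called, against 50.3% of all genes, and in knockout 30.9% and 33.2%, against 37.8%. Without knockout replicate 1, 11 of these genes were called in knockout, and the share of all genes is not given for that setting. The difference between the sets was not tested.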

How the data were processed

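RNA was extracted with Trizol and made into libraries with the TruSeq RNA kit, per the labels' protocols. That kit does not mark strand. Per the submitters' processing notes, the GRCh38 build was used, with RSEM, edgeR, TopHat2 2.0.4 and CASAVA 1.8 among the tools. Per the file headers, the authors deposited 1 table per comparison with count, FPKM, log2 fold change and p-value (with FDR) columns. The authors' deposited count columns hold expected counts times 1 scaling factor for each library, which was inferred from the numbers themselves. The columns were divided by that factor and rounded. The deposited FPKM values chose the members. The authors' own log2 fold changes and p-values are not reported.

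Each comparison was fitted on its 6 libraries with edgeR 4.0.16 (R 4.3.3, TMM scaling, default filter, quasi-likelihood test), adjusted over all genes. Of the 278 members, 276 and 277 passed the filter (ZNF525 passed in neither comparison, and ZNF273 passed in the knockout comparison alone). Standard errors are the log2 fold change divided by the root of the F statistic. Positions, proteins and shared 31-base words come from GENCODE 29 and upstream sequences from RefSeq (GRCh38.p14). The symbols ZNF559 and ZNF649 are not shown with a sequence. Counting intervals (95%, exact, conditional on the summed counts) and the floor of 3 counts cover counting error only. The finger pattern was C, 2 residues, C, 12 residues, H, 3 to 5 residues, H.

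Same-numbered replicates deviated together in the overexpression table (r across genes of 0.199, 0.238 and 0.553), so values with the replicate number as a block are given beside the printed results whose call they change. There the numbers set replicate 3 (-0.312 to -0.383 with unlike numbers) apart from 1 and 2, which correlated across numbers too (0.203 and 0.255). The numbers therefore do not tell replicates 1 and 2 apart, and p-values with the block may reflect technical spread. In the knockout table same-numbered replicates did not deviate together. The members and lists were chosen with earlier results of these data known. Named genes were KDM6B, the switches, the 8 largest rises and 8 largest falls per comparison among called members with separate libraries, the largest opposite and same-direction changes, the 6 highest levels, those next to the FPKM limit, role-list members and the leading corepressors. ZNF25, ZNF175, ZNF431 and the other neighbours, and ZNF595, were named after their values were seen. Alternatives were DESeq2 1.42.0, limma 3.58.1 on log2(FPKM + 1), other scalings, no count filter, the deposited columns as they stand, the replicate block, other membership rules, and left-out or summed replicates. Fits were tested on simulated data.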

Additional observations from a re-analysis of the deposited data

How the results depend on the processing

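Values here depend most on the replicates of the overexpression table. Apart from the replicate block on overexpression, shares of all genes called under the alternatives are not given. The counts below therefore show dependence on the processing only. With the replicate block, members called higher and lower on overexpression numbered 115 and 84, and corepressors 28. With replicates 1 and 2 only (chosen after seeing the data), the member counts were 115 and 73 on overexpression and 16 and 42 in knockout. With replicates 1 and 2 summed they were 40 and 14 on overexpression, with 6 corepressors and 20 other zinc finger genes. Library-size scaling gave 23 falls. Members sharing under 10% of their 31-base words, a smaller set by construction and chosen after seeing the data, gave 44 and 28 on overexpression and 38 falls in knockout. By limma on log2(FPKM + 1), knockout counts were 13 and 29 members, 4 corepressors and 2 other zinc finger genes, and KDM6B was -0.45 in knockout (adjusted p 0.188). The cause was not tested. Leaving out single libraries gave 10 to 16 corepressors on overexpression, 5 to 9 in knockout and 11 to 15 other zinc finger genes in knockout. Replicate numbers in the knockout table correlated at 0.036, -0.122 and -0.069, and the block gave 21 and 59 members there. Of 68 called results of named members, 40 kept their call under every alternative run, 28 lost it under at least 1, and none of the 68 turned direction. Library-size scaling turned the uncalled overexpression values of ZNF143 and ZNF146 to 0.049 and 0.038. Of 42 other uncalled results of named members, 21 had the opposite sign under at least 1 alternative, with sizes up to 0.13 and adjusted p-values from 0.173. Members near 1 CPM rest on few counts, which limits what depth can show.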
